A study of Mus musculus with 16 samples.

Results

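The question examined here was whether knockdown (KD) of the receptor FGFR4 changed the liver transcriptome differently on a high-fat diet (HFD) than on chow. All 16 of the 16 liver libraries entered the comparison, 4 in each of 4 groups. Mice on chow given saline are called Chow and those given the siRNA Chow/FGFR4 KD, and the same pair on the other diet HFD and HFD/FGFR4 KD. For each gene the KD effect on chow (Chow/FGFR4 KD minus Chow) was subtracted from the KD effect on HFD (HFD/FGFR4 KD minus HFD), which gives a log2 difference between diets. Of the 52143 genes in the table, 11324 were expressed highly enough to be tested.

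All mice were C57BL/6J males, 6 weeks old when the diets began, and each group stayed on its diet for 12 weeks. The KD groups received an siRNA against *Fgfr4* at 3 mg/kg under the skin every 2 weeks. It carried N-acetylgalactosamine, a sugar that hepatocytes take up, so the KD was aimed at hepatocytes and other liver cells were not its target. The Chow and HFD groups received saline, and as no group was given a control siRNA, an effect of siRNA as such cannot be told apart from the loss of FGFR4. Mice were housed 4 to a cage, and as their division over cages is not given in the sources used here, cage and group may coincide. Nothing in the labels says more about the replicates than that they are separate samples, so p-values measure the spread between these samples.

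FGFR4 is the hepatocyte receptor for FGF15, a hormone that the intestine releases when bile acids return to it. With its partner beta-Klotho it signals to the nucleus to repress *Cyp7a1*, which encodes cholesterol 7 alpha-hydroxylase, the first and rate-limiting enzyme of the classical bile acid pathway. Bile acids are made from cholesterol, and hepatocytes adjust cholesterol synthesis to their sterol content through SREBP2, a transcription factor that raises nearly every enzyme of the route when sterols are low.

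Total counts per library ranged from 3445949 to 5976449. A single gene, *Gm42418*, held between 11.1% and 22.7% of the counts. On the first principal component (46.1% of the variance of the 500 most variable genes), the HFD libraries scored 5.97 to 30.4 and the 8 chow-fed libraries -23.2 to -4.84. HFD/FGFR4 KD 2, 3 and 4 scored 16.7 to 20.5, but HFD/FGFR4 KD 1 scored -6.33, within the range of the chow-fed mice. Values without it are given beside several of the results that changed when it was left out. Hepatocyte markers summed to between 73800 and 96300 CPM (counts scaled to library size and trimmed-mean factors) in all 16 libraries, while all 7 markers of the exocrine pancreas were at or under 3 counts everywhere. As bulk tissue was measured, fewer cells of a type and less RNA per cell cannot be told apart.

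The siRNA lowered its target to a similar level on both diets. *Fgfr4* (ENSMUSG00000005320) was between 2.76 and 6.17 CPM in Chow/FGFR4 KD and between 2.43 and 5.31 CPM in HFD/FGFR4 KD, against 21.8 to 36.3 CPM in the 8 saline libraries. It fell on chow by 2.62 and on HFD by 2.77 on the log2 scale (limma-voom, Benjamini-Hochberg adjusted p 0.000223 and 9.06e-05). The difference between diets was -0.16 with a 95% interval from -0.95 to 0.64, so a difference in knockdown within that interval is not excluded.

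More genes were called for KD on HFD than on chow at the threshold of the study, p under 0.05 with an adjusted p under 0.25. On HFD 356 genes (3.14%) passed it, 170 of them higher (1.5%) and 186 lower (1.64%). That count was 138 without HFD/FGFR4 KD 1, ran from 89 without HFD 3 to 605 without HFD 2, and was 114 with 38 higher when scaled by library totals. On chow 1 gene (0.00883%) passed, *Fgfr4*, and 519 (4.58%) had an unadjusted p under 0.05. These counts do not test whether the effects differ. When the difference between diets was itself tested, 4 of the 11324 genes passed (0.0353%), all of them higher with KD on HFD than the chow effect would give, and 1 gene (0.00883%) passed at an adjusted p under 0.05. Without HFD/FGFR4 KD 1 there were 8 (7 higher), and DESeq2 called 62 (48 higher). With library totals as the scale none of the 11324 passed (761 at an unadjusted p under 0.05). At an unadjusted p under 0.05 there were 765 genes (6.76%), 397 above 0 (3.51%) and 368 below (3.25%). Of these 765 genes, 672 had KD effects of opposite sign on the 2 diets, beside 5377 of all 11324. In 485 (63.4%) the effect on HFD was the larger in size, beside 53.9% of all genes. Choosing genes by a large difference itself favours opposite signs, so these counts are no evidence of opposite effects.

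The 4 genes were *Tm7sf2*, *Cyp7a1*, *Idi1* and the predicted gene *Gm21897*, which makes 3 of the 4 enzymes of cholesterol or bile acid synthesis. *Tm7sf2* encodes a sterol C14-reductase that acts just after lanosterol is demethylated, and *Idi1* encodes isopentenyl diphosphate isomerase of the mevalonate pathway. In all 4 the KD effect was above 0 on HFD and below 0 on chow, opposite signs that choice by the difference also favours.

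*Tm7sf2* (ENSMUSG00000024799; chromosome 19, 6062821 to 6068373, minus strand, GRCm38) had the smallest p of all genes. Its level in the Chow libraries was 97.7, 92.1, 114 and 106 CPM, and in Chow/FGFR4 KD 99.8, 90.4, 87.4 and 89.1 CPM. In HFD it was 64.7, 68.5, 70.1 and 71.2 CPM, and in HFD/FGFR4 KD 111, 115, 117 and 120 CPM. The 4 HFD libraries lay below the other 12, the KD libraries on HFD lay above both HFD and Chow/FGFR4 KD, and the chow groups overlapped. *Tm7sf2* rose with KD on HFD by 0.75 (log2, adjusted p 9.06e-05), and its KD effect on chow was -0.16 (adjusted p 0.976). The difference between diets was 0.91 (SE 0.109, 95% interval 0.68 to 1.14, limma-voom adjusted p 0.00254). Leaving out HFD/FGFR4 KD 1 gave 0.93 (adjusted p 0.0057), and the gene was called in all 16 fits that left out 1 library.

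*Cyp7a1* (ENSMUSG00000028240; chromosome 4, 6265612 to 6275633, minus strand) had the largest difference of the 4. The Chow libraries held 66.4, 20.6, 64.1 and 57.3 CPM, and Chow/FGFR4 KD 38.3, 32, 50.6 and 18.2 CPM. The HFD libraries held 34.9, 41.7, 29.9 and 59.2 CPM, and HFD/FGFR4 KD 207, 183, 172 and 334 CPM. All 4 KD libraries on HFD lay above the other 12, which overlapped with each other. The mean was 5.42 times that of HFD in HFD/FGFR4 KD and 0.667 times that of Chow in Chow/FGFR4 KD. On the log2 scale *Cyp7a1* rose with KD on HFD by 2.45 (adjusted p 0.00276) and its KD effect on chow was -0.56 (adjusted p 0.976), a difference of 3.01 (SE 0.495, 95% interval 1.96 to 4.05, adjusted p 0.0764). The effect of HFD in saline mice was -0.28 (adjusted p 0.653). Without HFD/FGFR4 KD 1 the difference was 3.03 (adjusted p 0.137), and of the 16 fits that left out a library the one without HFD 1 lost the call (adjusted p 0.256).

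*Idi1* (ENSMUSG00000058258; chromosome 13, 8885501 to 8892451, plus strand) followed *Tm7sf2* in form. Its level was 221, 163, 151 and 185 CPM in Chow and 155, 169, 143 and 178 CPM in Chow/FGFR4 KD. It was 109, 70.9, 135 and 136 CPM in HFD and 210, 249, 280 and 258 CPM in HFD/FGFR4 KD. The 4 HFD libraries were again below the other 12, and the KD libraries on HFD were above all but Chow 1. *Idi1* rose with KD on HFD by 1.18 (adjusted p 0.00741), was -0.15 on chow (adjusted p 0.976), and differed between diets by 1.33 (SE 0.245, 95% interval 0.81 to 1.84, adjusted p 0.139). It was 1.41 without HFD/FGFR4 KD 1 (adjusted p 0.137), but 8 of the 16 fits that left out a library did not call it, and the highest adjusted p was 0.461, when HFD/FGFR4 KD 3 was dropped.

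*Gm21897* (ENSMUSG00000094472; chromosome 16, 15317458 to 15318957, plus strand) is a predicted gene with few counts, between 6.6 and 33.6 in a library. Its mean was 4.78 CPM in Chow, 2.52 in Chow/FGFR4 KD, 1.75 in HFD and 4.69 in HFD/FGFR4 KD, and the difference was 2.42 (SE 0.419, adjusted p 0.0894). Of the 31-base words in its transcript, 93.3% also occur in transcripts of other genes, so its estimate cannot be told apart from theirs. The same share was 0.0959% for *Cyp7a1*, 12.9% for *Tm7sf2* and 18.8% for *Idi1*. Of the 16 fits that left out a library, 4 did not call *Gm21897*, those without Chow/FGFR4 KD 1, HFD 1, HFD 3 and HFD/FGFR4 KD 3, with adjusted p up to 0.34.

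**Figure D1:**
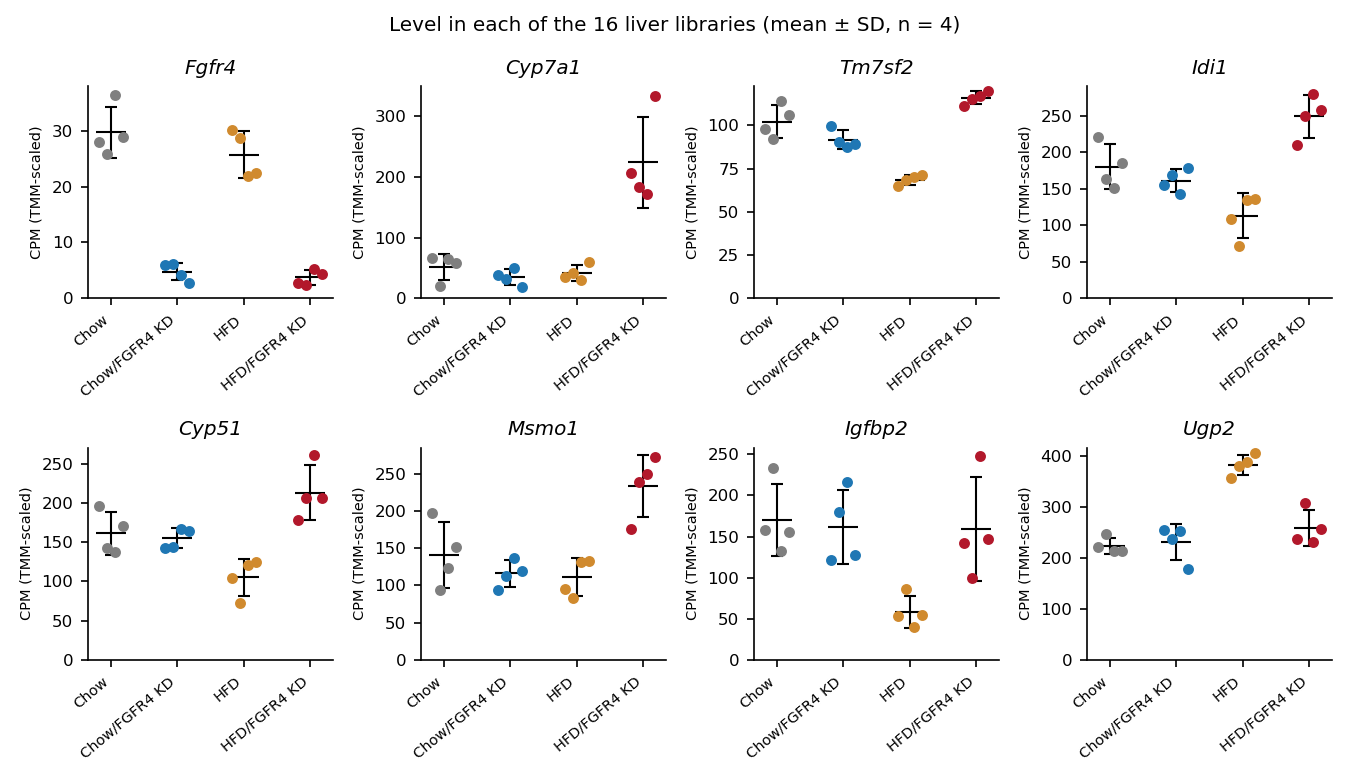
Levels of 8 genes in each of the 16 liver libraries, in CPM on linear axes that start at 0. Each point is 1 library and the bars are the mean and SD of the 4 libraries of a group. *Fgfr4* is low with KD on both diets, *Cyp7a1* is high in HFD/FGFR4 KD alone (172 to 334 CPM), and *Tm7sf2*, *Idi1*, *Cyp51* and *Msmo1* are highest there on average. *Igfbp2* is low and *Ugp2* high in HFD, and both lie nearer to chow in HFD/FGFR4 KD.

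*Idi1* and *Tm7sf2* lie on the route from acetyl-CoA to cholesterol, and the whole route was examined as 2 lists, 10 genes of the mevalonate arm up to squalene epoxide and 11 genes from lanosterol synthase onwards. All 21 were tested. The difference between diets was above 0 for all 21 genes, with a median of 0.82 on the log2 scale, beside 49.6% of all genes above 0 and a median of -0.003. Of the 21, 17 (81.0%) had an unadjusted p under 0.05 and a 95% interval above 0, beside 3.51% of all genes tested in that direction, and the 2 already described were called. The median KD effect was 0.75 on HFD, where 15 of the 21 were called beside 3.14% of all genes, and -0.09 on chow, where none was called and 18 were below 0. In saline mice the median HFD effect was -0.23, with 15 genes below 0. In 20 of the 21 genes the mean was highest in HFD/FGFR4 KD, and in 12 it was lowest in HFD. These lists were drawn up with earlier results of these data known, so their direction is not independent evidence.

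Promoter sequences show what these genes share besides their pathway. RefSeq gives a promoter (250 bases before to 50 after the start, GRCm38.p6) for 16 of the 21 genes. *Fdps*, *Fdft1*, *Sqle* and *Cyp7a1* are among those without an entry. Strings of letters were searched on both strands, 6 in all. CCAAT, the core of the NF-Y site that often accompanies SREBP sites, was found in 15 of 16 genes (93.8%), beside 41.1% of all 27025 genes with a promoter and 43.2% of the tested ones. Its longer form CCAATCA, which contains it, was in 11 (68.8%), beside 9.0% of all genes and 11.7% of those tested. The GC box GGGCGG was in 15 (93.8%), beside 38.2% and 68.1%. TCACNCCA, a form of the sterol regulatory element, was in 2 (12.5%), *Hmgcs1* and *Msmo1*, beside 4.97% of all genes and 4.5% of those tested. CACGTG was in 3 (18.8%), beside 8.09% of all genes and 11.9% of those tested, and TCAAGGTCA in 0, beside 0.466% and 0.323%. A match is only a run of letters and no binding was measured. Starts are those of the RefSeq transcripts, which can lie inside the gene spans given above, as for *Tm7sf2* and *Idi1*. The 120 bases before the RefSeq start are shown for the 6 genes with a promoter entry whose difference had the smallest p, with CCAAT or its reverse ATTGG in capitals, 5′ to 3′ on the strand of the gene:
*Tm7sf2* (chr19:6067851-6067970, minus strand): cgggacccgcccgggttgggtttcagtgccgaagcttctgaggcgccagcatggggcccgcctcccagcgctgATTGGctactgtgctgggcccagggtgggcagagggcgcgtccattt
*Idi1* (chr13:8885486-8885605, plus strand): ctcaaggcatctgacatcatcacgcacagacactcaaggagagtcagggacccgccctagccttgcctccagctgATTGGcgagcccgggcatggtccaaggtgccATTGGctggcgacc
*Cyp51* (chr5:4104698-4104817, minus strand): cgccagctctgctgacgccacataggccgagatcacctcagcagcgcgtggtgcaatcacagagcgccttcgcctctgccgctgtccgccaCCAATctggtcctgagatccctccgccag
*Msmo1* (chr8:64733579-64733698, minus strand): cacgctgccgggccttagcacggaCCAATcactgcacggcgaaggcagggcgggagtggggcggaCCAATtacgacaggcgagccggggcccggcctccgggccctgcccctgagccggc
*Mvk* (chr5:114444149-114444268, plus strand): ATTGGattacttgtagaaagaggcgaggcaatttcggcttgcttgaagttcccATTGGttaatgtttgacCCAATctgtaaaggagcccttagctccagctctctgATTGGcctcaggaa
*Nsdhl* (chrX:72918401-72918520, plus strand): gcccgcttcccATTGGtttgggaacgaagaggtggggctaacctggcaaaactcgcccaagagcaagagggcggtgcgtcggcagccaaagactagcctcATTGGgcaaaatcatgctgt
Each of the 6 stretches holds the motif at least once, *Mvk* has it 4 times, and the copy closest to the start begins between 14 and 55 bases before it.

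In the mevalonate arm, 9 of 10 genes had an unadjusted p under 0.05 for the difference between diets, and the median was 0.98. *Acat2*, which condenses acetyl-CoA, had 0.28 (95% interval -0.43 to 0.99). *Hmgcs1*, which makes HMG-CoA, had 0.92 (0.07 to 1.76). Of the kinases and the decarboxylase, *Mvk* had 0.93 (0.41 to 1.44), *Pmvk* 0.81 (0.12 to 1.5) and *Mvd* 1.18 (0.20 to 2.17). *Mvk* had the largest KD effect of the 21 genes on chow, -0.57 (unadjusted p 0.00598, adjusted p 0.976), beside 0.36 on HFD (adjusted p 0.418), and its chow groups did not overlap. It was also the 1 gene of the route whose mean was not highest in HFD/FGFR4 KD (16.6 CPM, beside 17 CPM in Chow). After *Idi1*, the prenyl synthase *Fdps* had 0.81 (0.29 to 1.34), squalene synthase *Fdft1* 1.04 (0.46 to 1.62) and squalene epoxidase *Sqle* 1.40 (0.49 to 2.30), the largest of the arm. *Sqle* was 89.7, 121, 96.3 and 92.2 CPM in HFD/FGFR4 KD, above the other 12 libraries, whose highest was 86.3 CPM in Chow 1.

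From lanosterol to cholesterol, 8 of 11 genes had an unadjusted p under 0.05, with a median difference of 0.69. *Cyp51*, the lanosterol demethylase, was 196, 142, 137 and 170 CPM in Chow and 143, 144, 167 and 164 CPM in Chow/FGFR4 KD. In HFD it was 104, 71.9, 121 and 124 CPM and in HFD/FGFR4 KD 178, 206, 261 and 206 CPM. Its groups on HFD did not overlap, and its HFD libraries were below all others. The difference of 1.08 (95% interval 0.60 to 1.57) had an unadjusted p of 0.000193 but did not pass the threshold (adjusted p 0.436). Without HFD/FGFR4 KD 1 it was 1.17 and passed (adjusted p 0.212). *Msmo1*, the C4-methylsterol oxidase, had 1.34 (0.72 to 1.97, adjusted p 0.491). It was 94.9, 83.4, 131 and 133 CPM in HFD and 176, 239, 249 and 273 CPM in HFD/FGFR4 KD, while the chow groups overlapped at 93.1 to 197 CPM and 94.0 to 137 CPM. *Nsdhl*, the next demethylation enzyme, had 0.70 (0.30 to 1.10), and its 4 HFD/FGFR4 KD libraries (79.1 to 104 CPM) were above the other 12 (42.3 to 67.2 CPM). Among the remaining enzymes *Lss* had 0.63 (-0.12 to 1.38), *Lbr* 0.69 (0.05 to 1.32), *Hsd17b7* 0.57 (0.12 to 1.03) and *Ebp* 0.37 (0.10 to 0.64). At the end of the route *Sc5d* had 0.30 (-0.32 to 0.93) and *Dhcr7* 0.78 (0.19 to 1.36). Of the 31-base words of these genes, 43.7% in *Acat2* and 27.9% in *Fdps* also occur in other genes.

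The libraries of a group did not move together as one. HFD/FGFR4 KD 1 was the lowest of its group in 20 of the 21 sterol genes, and HFD 2 the lowest of its group in 19. Averaged over the mevalonate arm, the log2 level relative to the Chow mean was 0.10 in HFD/FGFR4 KD 1 and 0.65 to 0.87 in the other 3, and it was -0.93 in HFD 2 and -0.155 to 0.144 in the other 3. Leaving out HFD/FGFR4 KD 1 gave a median difference of 0.93 over the 21 genes, and leaving out HFD 2 gave 0.64. The difference was above 0 in 21 of 21 genes in each of these fits, with an unadjusted p under 0.05 in 18 genes without HFD/FGFR4 KD 1 and in 13 without HFD 2. Scaling by library totals in place of trimmed-mean factors lowered the median to 0.70 and that count to 9, and shifted the median of all genes by -0.13.

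**Figure D2:**
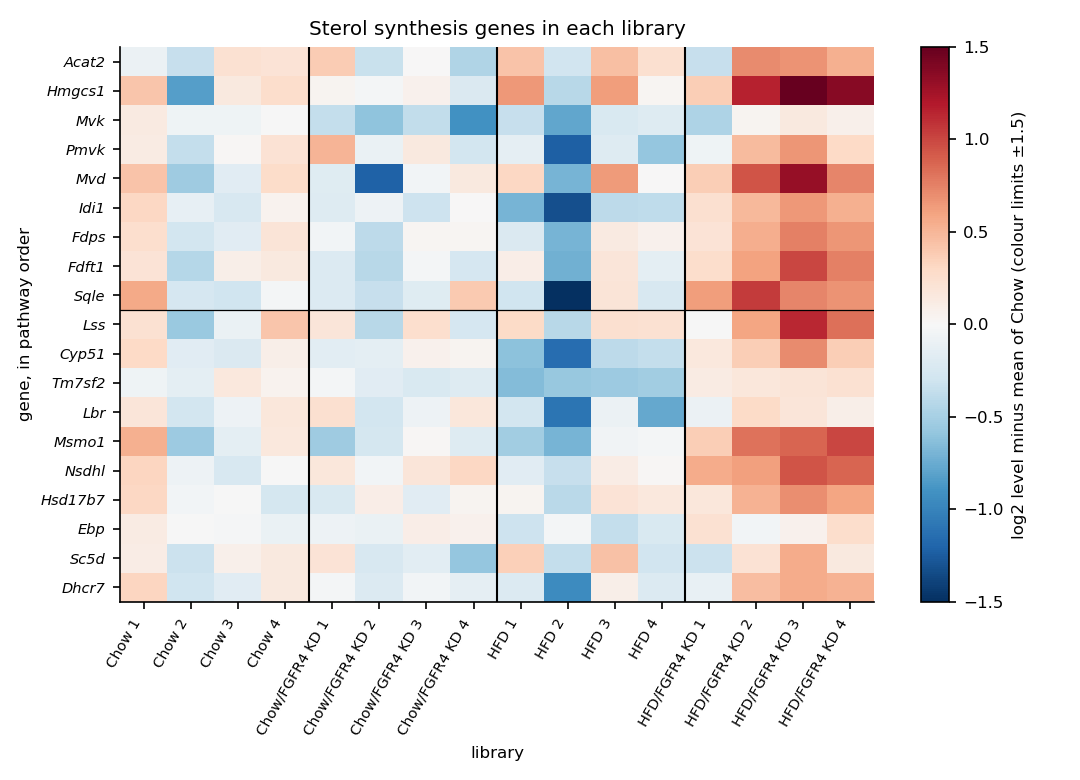
Colour gives the log2 level of 19 of the sterol synthesis genes (rows, in pathway order, a line parting the mevalonate arm from the later steps) in each of the 16 libraries (columns), relative to the mean of the 4 Chow libraries, with colours limited at 1.5 in either direction. HFD/FGFR4 KD 2, 3 and 4 are high along the route, HFD/FGFR4 KD 1 is closer to Chow, and HFD 2 is the lowest library.

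The switches of the route were described as a list of 13 tested genes around SREBP2 and sterol uptake. Of these 0 were called and 8 had a difference above 0, beside 49.6% of all genes. The median was 0.38, which became 0.22 without Chow/FGFR4 KD 1 and 0.24 without HFD/FGFR4 KD 1. *Srebf2*, which encodes SREBP2, was 53.3, 39.1, 52.9 and 45.4 CPM in HFD and 54.4, 71.9, 71.2 and 78.5 CPM in HFD/FGFR4 KD, groups that did not overlap, and 38.1 to 56.3 CPM over the chow-fed mice. Its difference between diets was 0.54 (95% interval 0.10 to 0.98, adjusted p 0.678). *Scap*, the sterol sensor that escorts SREBP2, had 0.45 (0.18 to 0.72, adjusted p 0.567), and *Insig1*, which retains it in the endoplasmic reticulum and is itself an SREBP target, had 0.94 (0.15 to 1.74, adjusted p 0.686). Only the mRNA is measured here, and SREBP2 activity is set largely by cleavage of the protein.

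In bile acid synthesis 1 gene was called. Of the 15 tested genes 13 had a difference above 0, beside 49.6% of all genes, with a median of 0.33. An unadjusted p under 0.05 was reached by 5, all above 0, beside 3.51% of all genes in that direction. *Cyp7a1* alone was called, beside 0.0353% of all genes. In the classical pathway after *Cyp7a1*, the 3 beta-hydroxysteroid dehydrogenase *Hsd3b7* had 0.15 (95% interval -0.19 to 0.50), and *Cyp8b1*, the 12 alpha-hydroxylase that sets the share of cholic acid, had 0.65 (-0.02 to 1.32). *Cyp8b1* was 0.07 with KD on HFD (adjusted p 0.937) and -0.58 on chow (unadjusted p 0.0191, adjusted p 0.976), so that its difference lay on the chow side. *Akr1d1*, the 5 beta-reductase, had 0.62 (0.22 to 1.03, adjusted p 0.571) and its HFD/FGFR4 KD libraries (175 to 255 CPM) were above the other 12 (103 to 164 CPM). The side-chain hydroxylase *Cyp27a1* had 0.44 (0.14 to 0.73, adjusted p 0.571). It was 216 to 293 CPM in HFD, 269 to 342 CPM in HFD/FGFR4 KD and 319 to 393 CPM over the 8 chow-fed mice, so that the HFD libraries lay below all libraries on chow. The bile acyl-CoA synthetase *Slc27a5* had 0.33 (0.10 to 0.56), and *Amacr*, a racemase of the side chain, 0.36 (0.08 to 0.64). The intervals of *Akr1c6* (-0.08 to 0.52), *Baat* (-0.13 to 0.47), *Scp2* (-0.31 to 0.15), *Acox2* (-0.46 to 0.25) and *Acot8* (-0.36 to 0.50) all held 0. Of the 31-base words of *Hsd3b7*, 54.8% also occur in other genes.

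The alternative pathway and the rodent muricholate step varied widely within groups. *Cyp7b1*, the oxysterol hydroxylase, was 29.8, 146, 27.7 and 91.3 CPM in HFD and 336, 71.3, 48.1 and 65.5 CPM in HFD/FGFR4 KD, and it was 164 to 478 CPM over the chow-fed mice. HFD/FGFR4 KD 1 alone was within the chow range. The difference was 0.91 with a 95% interval from -0.85 to 2.67, and 0.29 without that library. *Cyp2c70*, which makes muricholic acids, had 0.56 (-0.47 to 1.59) and likewise 414 CPM in HFD/FGFR4 KD 1 against 117 to 189 CPM in the other 3, and its difference was 0.17 without that library. *Cyp39a1* had 0.17 (-0.70 to 1.04).

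**Figure D3:**
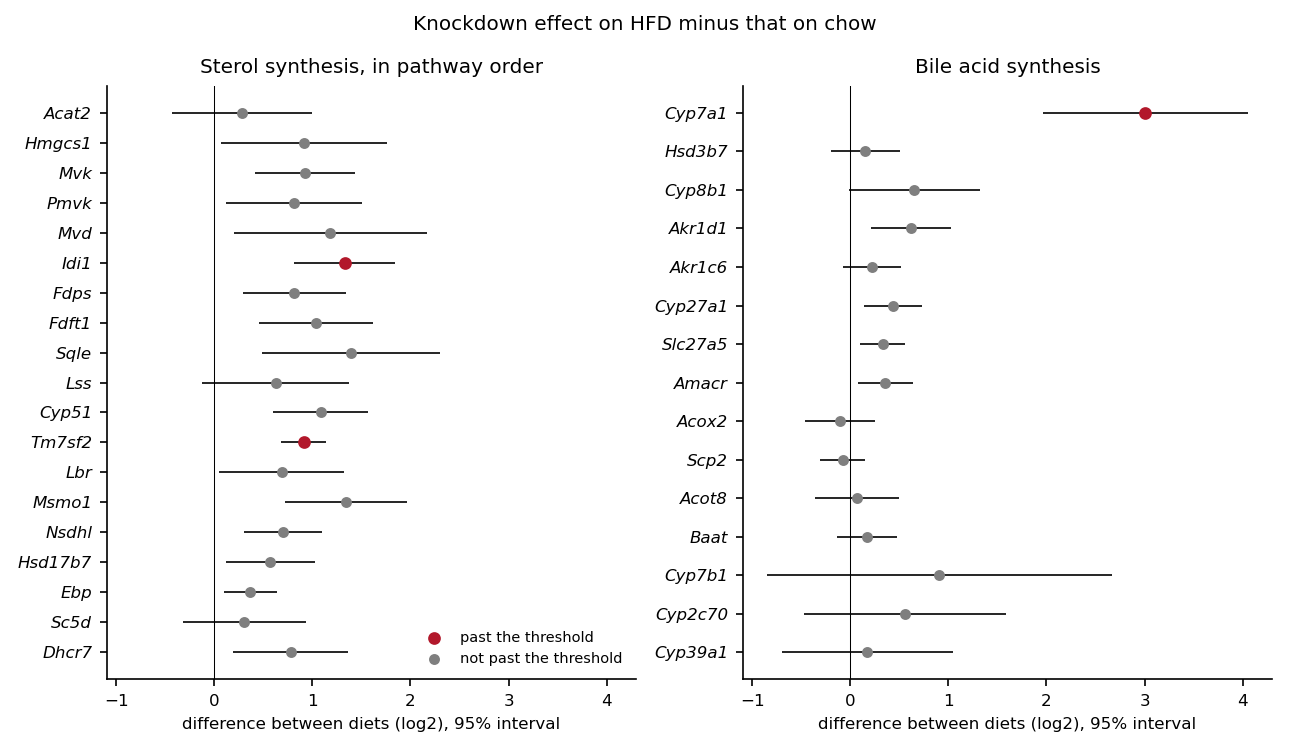
Points give the log2 difference between diets in the KD effect (HFD minus chow) and lines its 95% interval from limma-voom, for 19 of the sterol synthesis genes in pathway order (left) and the 15 bile acid synthesis genes tested (right). All 19 sterol points are right of 0, *Tm7sf2* and *Idi1* pass the threshold (red), and on the right *Cyp7a1* stands at 3.01 with all others under 1.

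Genes that act on *Cyp7a1* did not differ between diets at the threshold. Of 10 regulators 0 were called, and the differences ran up to 0.43. The median of 0.15 became 0.07 without Chow 2 and 0.03 when scaled by library totals. The bile acid receptor gene *Nr1h4* (FXR) had 0.26 (95% interval -0.10 to 0.62) and *Nr5a2* (LRH-1) -0.21 (-0.64 to 0.21). Of 9 FGF receptor and partner genes 0 were called, and their median of 0.09 was -0.04 when scaled by library totals and -0.05 without Chow 2. The beta-Klotho gene *Klb* had 0.32 (-0.13 to 0.76), *Fgfr1* 0.56 (-0.43 to 1.56) and *Fgfr3* -0.40 (-1.19 to 0.39). Genes induced by ERK, which FGF receptors activate, gave 0 calls of 13 and a median of -0.14 (0.12 without Chow 3). Of the 13 differences 5 were above 0, beside 49.6% of all genes. The median KD effect of this list was 0.04 on HFD and 0.28 on chow. An unadjusted p under 0.05 was reached by 3, all below 0, beside 3.25% of all genes in that direction. The 3 were *Spred1* (-1.09, -1.72 to -0.46, adjusted p 0.546), *Spred2* (-0.87, -1.5 to -0.24) and *Etv5* (-1.32, -2.60 to -0.04). *Etv5* had only 4 to 29.6 counts in a library. *Spred1* and *Spred2* encode inhibitors of the pathway that are part of its feedback. *Spred2* was 8.79 to 18.4 CPM in HFD and 7.0 to 8.67 CPM in HFD/FGFR4 KD, which did not overlap, and 8.20 to 12.7 CPM over the chow-fed mice.

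Transporters of bile acids and sterols moved in both directions. *Abcb11*, the canalicular bile salt export pump, was 471, 419, 347 and 403 CPM in HFD and 790, 490, 901 and 628 CPM in HFD/FGFR4 KD, and 572 to 749 CPM over the chow-fed mice. The groups on HFD did not overlap and those on chow did. *Abcb11* rose with KD on HFD by 0.74 (adjusted p 0.0453), was 0.00 on chow, and differed between diets by 0.74 (95% interval 0.30 to 1.19, unadjusted p 0.00251, adjusted p 0.567). *Abcg8*, a subunit of the sterol exporter, went the other way, with 55.8 to 74.1 CPM in HFD and 21.8 to 34.9 CPM in HFD/FGFR4 KD. It fell with KD on HFD by 1.18 (adjusted p 0.0496), and the difference was -0.97 (-1.69 to -0.25, adjusted p 0.617). *Abcg2* had -0.28 (-0.57 to 0.01). Over the 14 tested transporters 0 differences were called and the median was -0.04.

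Beyond these routes, several of the genes above 0 with the smallest p were low in HFD and nearer to the chow level in HFD/FGFR4 KD. None passed the threshold (limma-voom adjusted p 0.491 for each named here). Choice by a difference above 0 itself favours a low level in HFD, so this form is not independent evidence. *Slco2a1*, a prostaglandin transporter, was 82.7 to 112 CPM in Chow, 20 to 31.1 CPM in HFD and 30.9 to 69.6 CPM in HFD/FGFR4 KD, a difference of 1.20 (95% interval 0.61 to 1.80). *Gnmt*, the glycine N-methyltransferase that uses up S-adenosylmethionine, was 524 to 711 CPM in HFD and 822 to 1120 CPM in HFD/FGFR4 KD, beside 816 to 1130 CPM over the chow-fed mice, a difference of 0.73 (0.36 to 1.10). *Nat8* had 1.41 (0.66 to 2.16) and *Dct* 1.56 (0.74 to 2.38), *Caprin1* 0.70 (0.34 to 1.06) and the kinase gene *Prkd3* 0.71 (0.34 to 1.07). The HFD libraries of *Dct*, *Caprin1* and *Prkd3* overlapped those of the chow-fed mice, and *Prkd3* had a mean of 124 CPM in HFD and 119 CPM in Chow/FGFR4 KD. *Fam25c* was 9.80 to 15.9 CPM in HFD, 11.7 to 19.1 CPM over the chow-fed mice and 18.4 to 29.5 CPM in HFD/FGFR4 KD, a difference of 1.08 (0.51 to 1.65).

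Below 0, *Raet1e* had a difference of -3.64 (95% interval -5.40 to -1.89, unadjusted p 0.000429, adjusted p 0.491). It encodes a ligand of the NKG2D receptor of natural killer cells. HFD/FGFR4 KD held 0.688, 1.19, 0 and 0 CPM, which are 3.2, 5.4, 0 and 0 counts, against 2.62 to 8.35 CPM in HFD and 3.19 to 8.51 CPM over the chow-fed mice. *Raet1d*, which overlaps it on chromosome 10, had -2.44 (-3.75 to -1.13), and 67.1% of its 31-base words and 55.5% of those of *Raet1e* occur in other genes, so their counts cannot be separated with certainty. *Ugp2*, which makes UDP-glucose for glycogen, was 356, 381, 387 and 405 CPM in HFD, above all other libraries (178 to 307 CPM), and had a difference of -0.61 (-0.95 to -0.27, adjusted p 0.491). *Iscu* (-0.49, -0.74 to -0.25) and *Isca1* (-0.44, -0.67 to -0.21) both encode assembly factors of iron-sulfur clusters. The KD effect was 0.16 on chow and -0.33 on HFD in *Iscu*, and 0.27 and -0.17 in *Isca1*. *Ndufa5*, a subunit of respiratory complex I, was 32.4 to 37.1 CPM in HFD and 12.2 to 15.6 CPM in HFD/FGFR4 KD, 32.6 to 38.1 CPM in Chow and 20 to 29.7 CPM in Chow/FGFR4 KD. Neither pair of groups overlapped. *Ndufa5* fell with KD on HFD by 1.28 (adjusted p 9.06e-05), its KD effect on chow was -0.53 (unadjusted p 0.000522, adjusted p 0.976), and the difference was -0.75 (-1.13 to -0.38). In complex I as a whole 16 of 36 genes were above 0, beside 49.6% of all genes, with a median of -0.01 (0.007 with upper-quartile scaling). *Col4a2* (-1.22), *Ctsz* (-0.57), *Ppp2r1b* (-0.73) and *Sat1* (-0.68) were also below 0, and none passed the threshold. The KD effect on chow was 0.63 in *Col4a2* and 0.51 in *Sat1*, beside -0.58 and -0.17 on HFD, none of them called. In *Ctsz* and *Ppp2r1b* it was -0.02 and -0.11 on chow, beside -0.59 and -0.84 on HFD.

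Lipid metabolism genes mostly had differences below 0 and none was called. Over all genes 49.6% of differences were above 0. An unadjusted p under 0.05 was reached by 3.25% of all genes below 0 and by 3.51% above. Fatty acid synthesis had 2 of 15 genes above 0 and a median of -0.42, with *Me1*, the malic enzyme, at -1.10 (95% interval -2.19 to -0.02, and -0.73 when HFD/FGFR4 KD 1 was dropped) and the elongase *Elovl6* at -0.76 (-1.58 to 0.06). The median was -0.13 without HFD/FGFR4 KD 1 and -0.11 without Chow/FGFR4 KD 1. Lipid droplet genes had 3 of 14 above 0 and a median of -0.19, or -0.09 once HFD/FGFR4 KD 1 was left out. In this list 3 genes had an unadjusted p under 0.05 below 0 and 1 above. *Plin4*, a droplet coat protein, was 49.4 to 90.0 CPM in HFD and 18.6 to 38.7 CPM in HFD/FGFR4 KD, beside 11.4 to 27.2 CPM over the chow-fed mice, and differed by -1.24 (-2.10 to -0.37). *Mgll*, the monoglyceride lipase, had -0.62 (-1.12 to -0.12). *G0s2*, an inhibitor of the lipase ATGL, went the other way with 1.57 (0.73 to 2.42, adjusted p 0.491), and here the chow side was the larger, -1.09 (unadjusted p 0.00188, adjusted p 0.976) against 0.48 on HFD.

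Mitochondrial fatty acid oxidation had 5 of 18 genes above 0, beside 49.6% of all genes, and a median of -0.08. Peroxisomal oxidation had 7 of 18 and -0.15 (0.003 without HFD/FGFR4 KD 1). On HFD 0 of the 18 mitochondrial genes had a KD effect above 0, and on chow 1, beside 5726 and 5757 of all 11324 genes. *Hadhb*, a subunit of the trifunctional protein, fell with KD on HFD by 0.55 (adjusted p 0.018) and had a difference of -0.35 (95% interval -0.63 to -0.08). *Pex11a*, a peroxisome division gene, had -0.65 (-1.13 to -0.17) and *Hacl1* 0.72 (0.32 to 1.12). The PPAR-alpha target *Vnn1* was 127, 102, 138 and 91.9 CPM in HFD and 24.3, 63.1, 31.4 and 33.9 CPM in HFD/FGFR4 KD, which did not overlap, and 16.8 to 64.7 CPM over the chow-fed mice. It fell with KD on HFD by 1.67 (adjusted p 0.0428) and had a difference of -1.38 (-2.40 to -0.35, adjusted p 0.617). *Fgf21*, another target, had 1.92 (0.16 to 3.67) at 0.276 to 8.97 CPM. Its mean with KD was 0.406 times that of Chow and 1.43 times that of HFD, and the groups overlapped on both diets. Chow/FGFR4 KD 3 and 4 held 1 count each. The 16 genes of the PPAR-alpha list had 7 above 0 and a median of -0.18, which was 0.05 without HFD/FGFR4 KD 1 and 0.10 without Chow/FGFR4 KD 1.

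In insulin and growth hormone signalling no difference was called. *Igfbp2*, an IGF-binding protein secreted by hepatocytes, was 158, 233, 132 and 156 CPM in Chow and 122, 180, 217 and 128 CPM in Chow/FGFR4 KD. It was 53.3, 86.0, 40.2 and 54.5 CPM in HFD and 142, 99.4, 248 and 147 CPM in HFD/FGFR4 KD. The HFD libraries were below the other 12, and those with KD on HFD lay within or below the chow range except for HFD/FGFR4 KD 3. *Igfbp2* rose with KD on HFD by 1.42 (adjusted p 0.0453), was -0.08 on chow, and had a difference of 1.5 (95% interval 0.69 to 2.31, unadjusted p 0.00115, adjusted p 0.491). *Irs1*, the insulin receptor substrate, had 0.78 (0.12 to 1.44) and *G6pc*, glucose-6-phosphatase, 1.48 (0.26 to 2.69). Over the 15 genes of insulin and IGF signalling 9 were above 0, beside 49.6% of all genes. Their median was 0.09 (-0.04 when scaled by library totals, 0.01 without Chow/FGFR4 KD 1).

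Of 9 tested growth hormone-dependent and sex-biased genes 8 had a difference above 0, beside 49.6% of all genes. The median of 0.18 was 0.42 without HFD 3 and 0.05 when scaled by library totals. *Elovl3* was 566 to 861 CPM over the chow-fed mice, 73.1 to 177 CPM in HFD and 160 to 377 CPM in HFD/FGFR4 KD, a difference of 1.20 (0.41 to 1.99, adjusted p 0.571). *Hsd3b5*, a male-specific liver gene, showed how far 1 library could carry a value, with 0, 58.8, 0.153 and 35.9 CPM in HFD and 166, 10.1, 1.49 and 1.56 CPM in HFD/FGFR4 KD, and its difference of 2.79 had an interval from -1.26 to 6.85. It was 1.37 without HFD/FGFR4 KD 1, 0.97 without HFD 1 and 4.21 without HFD 2. *Serpina1e* likewise held 6790 CPM in HFD/FGFR4 KD 1 and 636 to 1830 CPM in the other 3, beside 105 to 949 CPM in HFD and 6290 to 11400 CPM over the chow-fed mice. Its difference was 1.99 without HFD/FGFR4 KD 1 and 3.12 without HFD/FGFR4 KD 3, the lowest and highest of the 16 fits that left out a library.

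Clock genes of the Bmal1 and Clock arm had 5 of 8 differences above 0, beside 49.6% of all genes. Their median was 0.24 (0.03 with edgeR and without Chow 4). *Arntl*, which encodes BMAL1, was 9.08, 5.39, 4.45 and 1.41 CPM in HFD, 17.1, 9.07, 12.6 and 17.1 CPM in HFD/FGFR4 KD, and 15.1 to 28.4 CPM over the chow-fed mice. The groups on HFD overlapped at their nearest libraries, and the difference was 1.36 (95% interval 0.39 to 2.34, adjusted p 0.592). *Clock* had 0.72 (0.28 to 1.16) and *Nfil3* 1.02 (0.11 to 1.93). The opposing arm had 6 of 8 above 0 and a median of 0.06 (-0.06 when scaled by library totals), with *Nr1d1* (REV-ERB alpha) at 0.73 (0.07 to 1.39) and *Per2* at -0.63 (-1.5 to 0.24). The time of day at which each liver was taken was not given in the sources used here, and its part in these values was not tested.

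Interferon response genes had 4 of 27 differences above 0, beside 49.6% of all genes, a median of -0.32 and 0 calls. An unadjusted p under 0.05 was reached by 4, all below 0, beside 3.25% of all genes in that direction. Averaged over the list, the log2 level relative to the Chow mean was 0.717 in HFD/FGFR4 KD 4, above HFD (0.596 to 0.648). That level was 0.185 to 0.235 in HFD/FGFR4 KD 1, 2 and 3. *Usp18*, which restrains interferon signalling, was 8.79, 10.8, 9.5 and 12.5 CPM in HFD and 2.38, 3.54, 4.65 and 7.25 CPM in HFD/FGFR4 KD, and 2.21 to 5.75 CPM over the chow-fed mice. The HFD libraries were above the other 12. *Usp18* fell with KD on HFD by 1.30 (adjusted p 0.0453) and differed by -1.30 (95% interval -2.19 to -0.41, adjusted p 0.571), and *Xaf1* had -1.01 (-1.90 to -0.12).

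Markers of Kupffer cells and macrophages mostly had differences below 0 as well. Of 12 markers 11 had a difference below 0, while 49.6% of all genes were above 0. The median was -0.60 (-0.43 without HFD/FGFR4 KD 1, -0.35 without HFD 2). An unadjusted p under 0.05 was reached by 3, *Csf1r* (-0.58), *Cd68* (-1.19) and *Lyz2* (-0.67), beside 3.25% of all genes below 0. Without HFD/FGFR4 KD 1 they were -0.45, -0.84 and -0.51. *Cd68* had only 3 to 35 counts in a library, and 32.8% of the 31-base words of *Lyz2* occur in other genes. Their summed level was 95 to 97.9 CPM in Chow, 114 to 155 CPM in Chow/FGFR4 KD, 160 to 284 CPM in HFD and 138 to 238 CPM in HFD/FGFR4 KD. The KD effect was above 0 for all 12 on chow (median 0.49), beside 50.9% of all genes, while their median with KD on HFD was -0.10. None was called in either diet or in the difference, and the part of these cells in the results above was not tested. Stellate cell and fibroblast markers summed to 162 to 317 CPM in HFD and 112 to 205 CPM in HFD/FGFR4 KD, and their median difference was -0.47 (-0.23 without HFD 3) with 0 calls of 9. Acute phase genes had 2 of 20 above 0, beside 49.6% of all genes, and a median of -0.36. This median became 0.03 without Chow/FGFR4 KD 4, the library in which *Serpina3n* was 982 CPM against 217 to 414 CPM in the rest of its group. The KD effect on these genes was above 0 in 15 of 20 on HFD (median 0.22) and in all 20 on chow (median 0.44). Over all 11324 genes it was above 0 in 5726 on HFD and 5757 on chow.

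**Figure D4:**
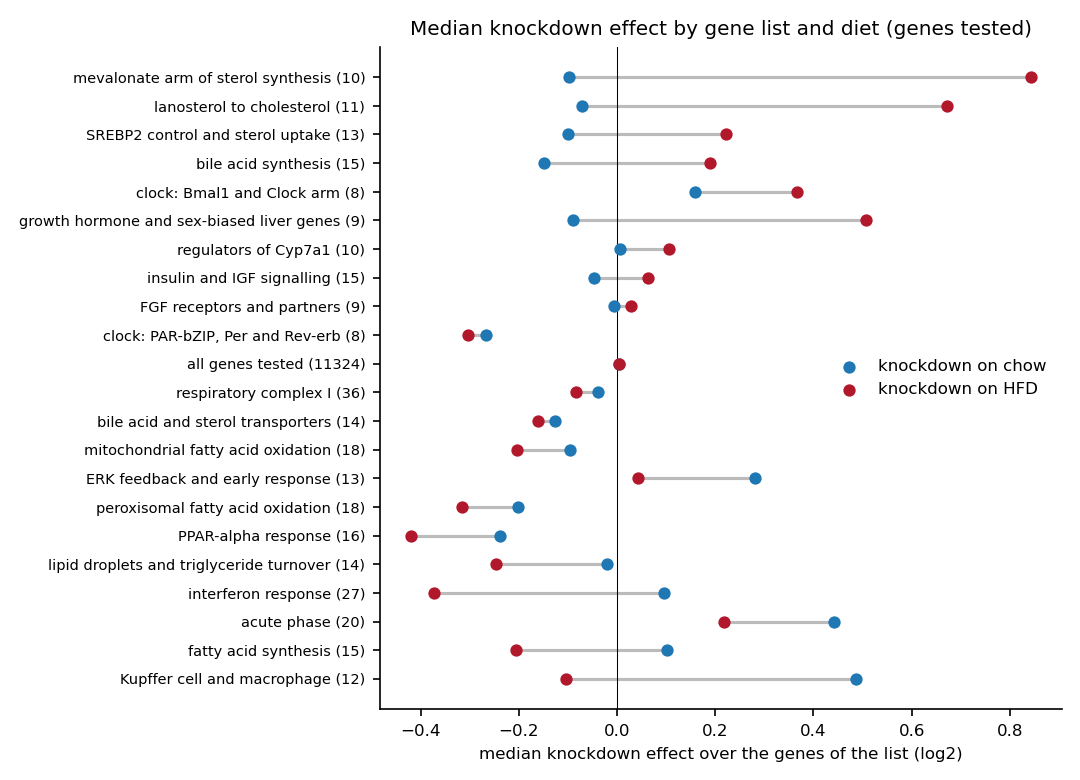
Median KD effect on chow (blue) and on HFD (red), on the log2 scale, over the tested genes of each list, with the number of genes in brackets and lists ordered by their median difference. The sterol lists stand apart at 0.67 and 0.84 on HFD against -0.07 and -0.10 on chow, all genes together are near 0 on both diets, and the macrophage markers lie to the right on chow (0.49) and left of 0 on HFD.

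Over all 11324 genes the estimated KD effects on the 2 diets, which share no library, were nearly uncorrelated. Pearson's r was 0.0533 and Spearman's rho 0.054 across genes, which are not independent replicates. Both effects carry the spread of 4 libraries against 4, so a low correlation does not show that the effects themselves are unrelated. Among the 170 genes that rose with KD on HFD, 84 (49.4%) had a KD effect above 0 on chow, beside 50.9% of all genes, and their median was 0.605 on HFD and -0.005 on chow. Among the 186 genes that fell, 128 (68.8%) were below 0 on chow, beside 49.1% of all genes, with medians of -0.506 and -0.061. At an adjusted p under 0.05 on HFD, which 0.274% of all genes passed, 4 of 14 rising genes and 13 of 17 falling genes had the same sign on chow. The median size of the KD effect was 0.147 on HFD and 0.13 on chow.

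**Figure D5:**
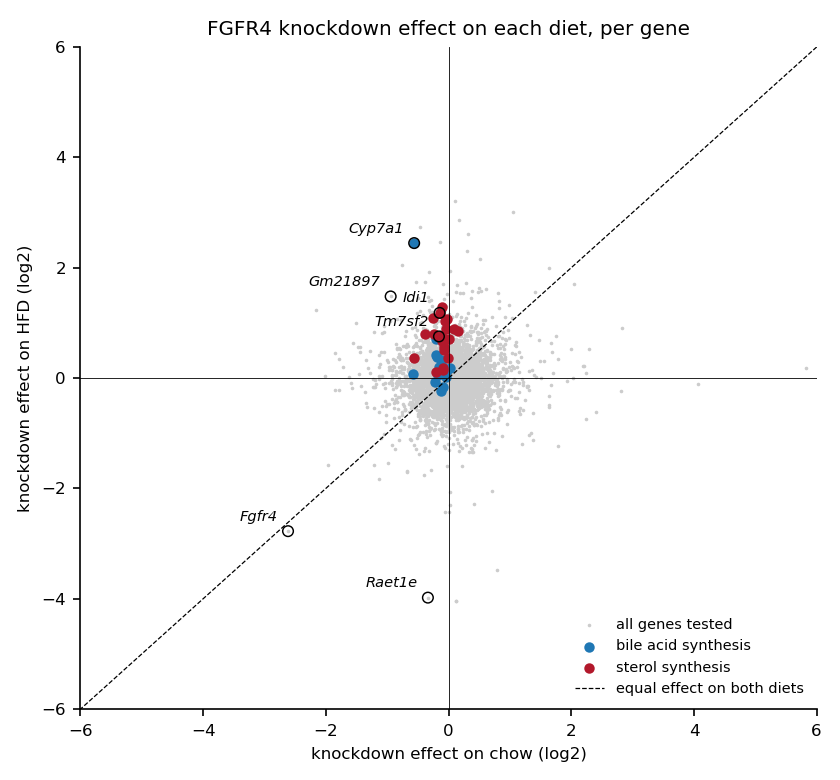
Each point is 1 of the 11324 genes, with the KD effect on chow on the x axis and that on HFD on the y axis, both log2. The dashed line marks equal effects. *Fgfr4* lies on it at the lower left, the sterol synthesis genes (red) lie in a band above it near 0 on chow, and *Cyp7a1* is at -0.56 on chow and 2.45 on HFD.

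The precision of the design limits what the test of the difference could show. The 95% interval of a gene's difference reached 0.54 to either side on the log2 scale in the median gene, 1.03 for genes under 5 CPM on average and 0.32 for those of at least 100 CPM. A difference smaller than that in such a gene would not reach an unadjusted p of 0.05, and a call needed a larger one. *Cyp51*, with a difference of 1.08 (95% interval 0.60 to 1.57), was not called. A gene that missed the threshold is not shown to respond alike on both diets.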

How the data were processed

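Liver RNA of 16 mice was sequenced, 4 libraries in each of 4 groups taken from the sample labels. The deposited table holds expected counts per gene, which the authors estimated with kallisto against mouse transcripts and summed to genes with tximport. The submitters' processing notes also name fastp and the build GRCm38, and the transcriptome release is not given in the sources used here. The labels name a KAPA mRNA HyperPrep kit, while the methods name another library preparation. A gene was tested unless it was under 1 CPM in over 4 libraries, and 11324 of 52143 genes were. Trimmed-mean (TMM) factors and limma-voom (limma 3.58.1, edgeR 4.0.16, R 4.3.3) were applied to group means of all 16 libraries, and the difference between the KD effects was tested as a contrast with Benjamini-Hochberg adjustment over all genes. Calls required p under 0.05 and, as in the study, an adjusted p under 0.25. The scripts were tested on simulated data.

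Estimated counts divide reads between similar transcripts, so the share of 31-base words found in other genes is given above for some genes. Among the others named, it was highest in *Serpina1e* (54.2%), *Hsd3b5* (34.1%), *Scp2* (33.4%), *Lyz2* (32.8%) and *Hacl1* (31.2%). The share was 30.3% in *Etv5*, 30.0% in *Me1*, 23.3% in *Hadhb* and 21.6% in *Serpina3n*. Library totals of 3445949 to 5976449 limit the precision of genes with few counts. The alternatives were edgeR's quasi-likelihood test and DESeq2 1.42.0 on rounded counts, other filters and scalings, library quality weights, a replicate block, and leaving out each library. The fit was also repeated without *Gm42418* and *Lars2*. The members and gene lists were chosen with earlier results of these data known. Genes named were *Fgfr4*, *Cyp7a1*, *Tm7sf2* and *Idi1*, all genes called, the 12 of each sign with the smallest p other than predicted genes, the sterol and bile acid synthesis lists, and up to 3 of each other list by p. *Gm42418* was named outside this rule, for its share of the counts, and *Lars2* because it was removed together with it in that fit. Some genes that this rule names are not reported here by name, though list counts include them. Promoters came from RefSeq (GRCm38.p6). Figures were drawn with matplotlib 3.10.9 in Python 3.11.15.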

Additional observations from a re-analysis of the deposited data

Results flagged for a closer look

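The KD effect differed between the diets, by the test of the difference itself, for *Tm7sf2* (0.91 on the log2 scale), *Cyp7a1* (3.01), *Gm21897* (2.42) and *Idi1* (1.33).

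Within groups of 4, a single library stood apart from the other 3 in 16 of 376 sets of values, by Dixon's test, which by chance picks out about 1 set in 20. In HFD 2 these were *Gm21897* (2.9 CPM), *Nat8* (7.81 CPM), *Lss* (30.1 CPM) and *Abcg2* (95.6 CPM). In HFD/FGFR4 KD 1 they were *Cyp7b1* (336 CPM) and *Hsd3b5* (166 CPM), and in HFD/FGFR4 KD 3 *Cyp39a1* (34.7 CPM). Chow 2 stood apart in *Cyp8b1* (267 CPM), *Akr1c6* (820 CPM) and *Spred2* (12.0 CPM), and Chow 3 in *Isca1* (48.4 CPM) and *Raet1d* (25.2 CPM). The others were *Akr1d1* in Chow/FGFR4 KD 3 (136 CPM), *Hsd3b7* in Chow/FGFR4 KD 4 (260 CPM), *Serpina3n* in HFD 3 (382 CPM) and *Cd68* in HFD 4 (3.23 CPM).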

How the results depend on the processing

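The number of genes called for the difference between diets, 4, was also 4 with edgeR. It was 62 with DESeq2, 48 of them higher, with 3 of the 4 and 8 of the 21 sterol synthesis genes among them. Genes named above as not called, such as *Ugp2*, *Igfbp2* and *Abcb11*, were also among the 62. The count was 7 without a filter on low counts, 7 with library quality weights, 1 at an adjusted p under 0.05 and 0 when scaled by library totals. Leaving out 1 library gave from 1 (without HFD 1) to 27 (without HFD/FGFR4 KD 2). It was 2 without Chow/FGFR4 KD 1 or HFD/FGFR4 KD 3 and 8 without Chow 2, Chow 3 or HFD/FGFR4 KD 1. With the replicate block it was 2, *Tm7sf2* and *Cyp7a1*. Replicate numbers did not pair the samples: over 24 pairs with the same number, deviations from group means correlated at -0.297 to 0.244, and 4 libraries correlated best with their own number. The sign turned for 3 genes and the cause was not tested. *Fgfr4* ranged from -0.394 (without HFD/FGFR4 KD 3) to 0.017 (without HFD/FGFR4 KD 2). *Acot8* ranged from -0.035 (without HFD/FGFR4 KD 4) to 0.143 (without HFD/FGFR4 KD 1) and was -0.072 with library totals. *Cyp39a1* ranged from -0.128 (without HFD/FGFR4 KD 3) to 0.398 (without Chow 1), and was -0.025 without HFD 2. Of 3255 alternative values in all, 3122 kept their direction and their side of the threshold or moved little. Most belong to genes not called at first, for which staying uncalled counts as kept, and list medians near 0 could change sign within that count. So 3122 does not measure how firm the calls are. *Idi1* lost its call in 8 of 16 fits that left out a library and in 2 of 10 other settings. Depth limits genes with few counts, such as *Gm21897*.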
